A study of Drosophila melanogaster with 12 samples.

Results

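Intergenic regions lying far from genes were examined for chromatin occupancy of Polycomblike (*Pcl*) in the sweet taste neurons of adult *Drosophila melanogaster*. A region was a GATC fragment, the stretch of DNA between neighbouring GATC sites, on the arms 2L, 2R, 3L, 3R, 4 or X. It was counted as far intergenic when it lay wholly 5 kb or more from the span of every gene in the Ensembl BDGP6 annotation, with annotated transposable elements not counted as genes. This took in 42338 of 373710 fragments (11.3%), which covered 16.1 Mb of the 134 Mb examined. The far intergenic fragments formed 883 uninterrupted runs, called intervals from here on, with a median length of 7612 bp and a longest run of 699865 bp. They were set against 45043 fragments that lay off genes but nearer than 5 kb and 286329 fragments that overlapped a gene. Membership was set by position.

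Flies of the genotype *Gr5a;tubulinGAL80ts>UAS-LT3-Dam::Pcl* were fed a sugar diet (30% sucrose) or a control diet (5% sucrose), with a time of 4 days in the sample titles and 3 biological replicates per diet. Each replicate pooled 300 heads of age-matched males and females. The *Gr5a* driver directs the fusion protein to sweet-sensing cells, *GAL80ts* keeps it off until the flies are warmed, and whole heads were lysed, so the methylated DNA came from whichever head cells the driver was active in. Libraries from *Gr5a;tubulinGAL80ts>UAS-LT3-Dam* flies, 3 per diet, served as denominators and were not analysed on their own. Every value is the deposited log2(Dam::Pcl/Dam), in which 0 stands for equal signal of both proteins and 1 for 2-fold more *Pcl* signal.

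*Pcl* is a subunit of one form of Polycomb Repressive Complex 2 (PRC2), the complex that places H3K27me3, a histone mark of silenced developmental genes. In flies the complex is brought to DNA at Polycomb response elements, which may lie at promoters, inside genes or far away in intergenic DNA. Genes of developmental transcription factors are often flanked by long intergenic stretches that hold their enhancers and response elements. In Targeted DamID the bacterial methylase Dam, fused to the protein of interest, marks GATC sites near which the protein sits, and free Dam marks open chromatin. Pericentromeric DNA, rich in repeats, is largely packed into another kind of silent chromatin that does not depend on PRC2.

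The following sequences are examples of high, low and changed values met in far intergenic DNA. They were taken from RefSeq for the dm6 (BDGP6) genome and are written 5′ to 3′ on the plus strand, and capitals mark GCCAT, the core of the site bound by the recruiter Pleiohomeotic in flies, or its reverse complement ATGGC. The motif of GAGA factor, GAGAG or CTCTC, was also searched for and occurred in none of them. The first 3 are the fragments of 50 to 300 bases with the highest mean in 3 of the far peaks with the most *Pcl*. The next 2 come from the 2 intervals with the lowest mean among intervals of at least 5 fragments and 2000 bp. The last 4 are the central 300 bases of peaks that differed most between the diets. From the peak between *ems*, a homeobox gene of head patterning, and *Art9* came chr3R:13922247-13922320, which averaged 6.83 on the sugar diet and 4.70 on the control diet. The peak between *CG9483* and *CG42713* gave chr2L:8879647-8879772, with means of 5.82 on the sugar diet and 4.82 on the control diet. A peak between *CG6414* and *CG43689* gave chrX:4041077-4041338, with means of 4.48 on the sugar diet and 5.17 on the control diet. The low fragments were chr3R:13807463-13807586, at −0.33 on the sugar diet and −1.45 on the control diet, and chrX:18700991-18701081, at 0.36 on the sugar diet and −1.57 on the control diet. The changed peaks were represented by chr3R:18063478-18063777 and chr2L:15370511-15370810, which were higher on the sugar diet and contained 49.3% and 53.7% GC, and by chr3L:20666390-20666689 and chr2L:18749458-18749757, which were lower on the sugar diet and contained 27.0% and 36.7% GC.
*ems* to *Art9*, peak: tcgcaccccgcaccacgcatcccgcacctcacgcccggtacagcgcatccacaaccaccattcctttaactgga
*CG9483* to *CG42713*, peak: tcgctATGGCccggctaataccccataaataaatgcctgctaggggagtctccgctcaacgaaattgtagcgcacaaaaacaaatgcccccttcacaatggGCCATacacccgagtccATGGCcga
*CG6414* to *CG43689*, peak: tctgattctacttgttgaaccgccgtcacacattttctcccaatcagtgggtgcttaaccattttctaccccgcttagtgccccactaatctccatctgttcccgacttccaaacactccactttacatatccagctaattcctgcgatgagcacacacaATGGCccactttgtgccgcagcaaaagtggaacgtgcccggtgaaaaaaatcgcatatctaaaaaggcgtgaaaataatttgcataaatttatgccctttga
*tRNA:Phe-GAA-1-7* to *tal-1A*, low interval: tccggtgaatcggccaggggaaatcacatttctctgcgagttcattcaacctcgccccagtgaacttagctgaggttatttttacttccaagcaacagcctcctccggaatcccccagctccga
*Cyp18a1* to *CCKLR-17D1*, low interval: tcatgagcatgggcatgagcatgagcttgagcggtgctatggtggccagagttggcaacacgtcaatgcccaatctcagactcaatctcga
*htl* to *bard*, peak higher on the sugar diet: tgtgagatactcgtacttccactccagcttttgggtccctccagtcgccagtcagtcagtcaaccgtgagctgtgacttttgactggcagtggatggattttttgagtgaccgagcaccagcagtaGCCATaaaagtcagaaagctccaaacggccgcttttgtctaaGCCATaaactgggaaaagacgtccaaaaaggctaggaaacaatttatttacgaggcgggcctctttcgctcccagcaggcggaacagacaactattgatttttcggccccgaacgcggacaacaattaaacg
*CG15258* to *CG44869*, peak higher on the sugar diet: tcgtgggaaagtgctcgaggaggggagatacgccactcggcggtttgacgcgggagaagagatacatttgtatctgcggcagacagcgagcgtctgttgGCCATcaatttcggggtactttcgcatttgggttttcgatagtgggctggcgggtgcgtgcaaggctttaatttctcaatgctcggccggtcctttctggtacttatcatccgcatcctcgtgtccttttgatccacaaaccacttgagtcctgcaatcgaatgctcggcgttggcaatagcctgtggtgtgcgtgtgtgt
*CG13251* to *kni*, peak lower on the sugar diet: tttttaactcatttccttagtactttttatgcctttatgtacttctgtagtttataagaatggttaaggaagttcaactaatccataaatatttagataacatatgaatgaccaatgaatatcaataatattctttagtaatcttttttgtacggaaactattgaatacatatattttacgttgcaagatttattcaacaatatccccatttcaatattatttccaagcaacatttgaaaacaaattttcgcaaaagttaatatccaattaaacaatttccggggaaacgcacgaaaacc
*CG15167* to *ham*, peak lower on the sugar diet: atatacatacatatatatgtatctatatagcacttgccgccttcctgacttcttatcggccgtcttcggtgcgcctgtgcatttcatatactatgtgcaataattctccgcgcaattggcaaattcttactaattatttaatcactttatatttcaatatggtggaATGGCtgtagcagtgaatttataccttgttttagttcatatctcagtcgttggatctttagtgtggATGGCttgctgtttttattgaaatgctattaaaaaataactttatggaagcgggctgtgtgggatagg

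The 6 ratio files listed the same fragments, and their sequencing depth is unknown because they hold no reads. Between 10.6% and 11.1% of all fragments were at exactly 0 in a sample, and 1682 to 1844 peaks were called per sample. The sweet receptor gene *Gr5a* averaged 0.20 ± 0.04 on the sugar diet and 0.20 ± 0.04 on the control diet (SD, n = 3 each). The sweet receptor genes *Gr64a* and *Gr64f* averaged −0.28 ± 0.16 and −0.31 ± 0.06 on the sugar diet. On the control diet they averaged −0.26 ± 0.03 and −0.01 ± 0.07, and the diets did not overlap at *Gr64f*. The bitter receptor gene *Gr66a* averaged −0.36 ± 0.10 on the sugar diet and −0.30 ± 0.13 on the control diet. These are levels of *Pcl* and do not check the cell type. Among far intergenic fragments, 12351 to 13382 were at 0 in a sample, and of these 0 had a negative ratio in the remaining replicates of that diet, against 422 to 1551 in a replicate of the other diet. Whether the ratios of a diet share a Dam-only denominator is not given in the sources used here, and if they do, the p-values leave out its variation.

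Far intergenic DNA of the chromosome arms carried about as much *Pcl* as the DNA next to genes and far more than the genes themselves. On the arms, which exclude the pericentromeric parts, the 17193 far fragments had length-weighted means of 0.64, 0.80 and 0.81 on the sugar diet, against 0.78, 0.70 and 0.66 on the control diet. The diets overlapped, and the difference of 0.04 was within the replicate spread (exact permutation test, two-sided, p = 0.6, n = 3 each). Far minus gene was 0.49 on average and lay between 0.44 and 0.55 in the 6 samples (exact sign-flip permutation test, two-sided, p = 0.031, the smallest that 6 samples can give). Far minus near was small but negative in all 6 samples, between −0.11 and −0.04 (mean −0.07, same exact test, p = 0.031). With protein-coding genes alone setting the distance it was 0.0020, so the order of far and near DNA depended on whether noncoding genes were counted. Of the far fragments, 26.3% exceeded 1 on the sugar diet and 23.1% on the control diet.

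Along the arms the level did not fall off with distance from genes until beyond 20 kb. Fragments overlapping a gene averaged 0.23 ± 0.05 on the sugar diet and 0.25 ± 0.06 on the control diet, and those 2 to 5 kb away averaged 0.88 ± 0.11 on the sugar diet and 0.82 ± 0.07 on the control diet (SD, n = 3 each). At 5 to 7.5 kb the means were 0.81 ± 0.10 on the sugar diet and 0.76 ± 0.07 on the control diet, and at 15 to 20 kb they were 0.92 ± 0.10 on the sugar diet and 0.84 ± 0.06 on the control diet. From 20 to 30 kb they were 0.58 ± 0.09 on the sugar diet and 0.61 ± 0.07 on the control diet. Beyond 30 kb, where 15 intervals remained, they were 0.13 ± 0.02 on the sugar diet and 0.20 ± 0.02 on the control diet, and 36.3% of those fragments were at 0 in every sample. The boundary at 5 kb fell within this plateau. The 1499 fragments from 5 to 5.5 kb averaged 0.80 on the sugar diet and 0.73 on the control diet, and the 1751 fragments from 4.5 to 5 kb averaged 0.88 on the sugar diet and 0.84 on the control diet.

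**Figure D1:**
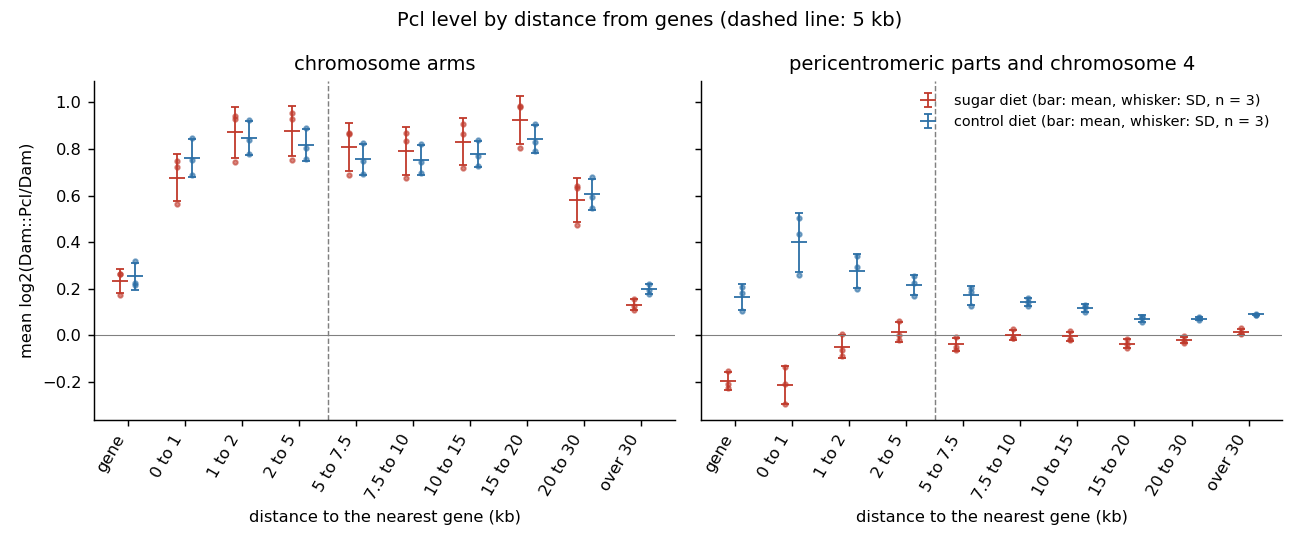
Mean log2(Dam::Pcl/Dam) by distance to the nearest gene in kb, for the chromosome arms (left) and for the pericentromeric parts with chromosome 4 (right); points are replicates, bars are means and whiskers are SD (n = 3), with the sugar diet left of the control diet in each class. On the arms the far classes up to 20 kb sit between 0.75 and 0.92, well above genes at 0.23 and 0.25, while the pericentromeric far classes stay between −0.04 and 0.17.

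Pericentromeric parts and chromosome 4 held most far intergenic fragments and little *Pcl*. Their 25145 far fragments had means of −0.01, 0.02 and −0.01 on the sugar diet, against 0.10, 0.10 and 0.09 on the control diet, and the diets did not overlap. The difference of −0.10, which became 0.082 after GC correction, had p = 0.1 in the exact permutation test, the smallest that 3 against 3 samples can give. Far fragments of the arms exceeded those of the pericentromeric parts by 0.57 to 0.82 in the 6 samples (mean 0.68, exact sign-flip test, p = 0.031). A ratio of exactly 0 in all 6 samples was found for 33.7% of pericentromeric far fragments and 14.6% of far fragments on the arms, against 5.86% of all fragments overlapping a gene. What a ratio of 0 stands for in these fragments was not tested. Chromosome 4 gave only 5 far intervals with 0.089 Mb, so the pooled values are mostly those of the pericentromeric parts. On chromosome 4, far peaks beside *zfh2* and *Cadps* averaged 2.85 and 2.42 over the 6 samples. They were at 1.93 and 1.69 on the sugar diet, against 3.77 and 3.14 on the control diet. Both were peaks on the control diet alone, and annotated transposable elements covered 100% of the *Cadps* peak.

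Annotated transposable elements carried a share of these zeros on the arms. Far fragments covered to 50% or more by an annotated element were at 0 in all samples in 56.8% of 2965 cases and averaged 0.02 ± 0.01 on the sugar diet and 0.07 ± 0.01 on the control diet. The 13931 far fragments with no annotated element averaged 0.86 ± 0.11 on the sugar diet and 0.81 ± 0.07 on the control diet (SD, n = 3 each). Far DNA of the arm part of X was above that of the autosomes by 0.13 to 0.21 in the 6 samples (mean 0.16, exact sign-flip test, p = 0.031), with 0.89 ± 0.12 on the sugar diet and 0.84 ± 0.08 on the control diet on X. This X excess was larger in far DNA than in near DNA by 0.09 to 0.13 (mean 0.10) and than in genes by 0.09 to 0.16 (mean 0.12), each positive in 6 of 6 samples (p = 0.031, same exact test).

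The far intergenic *Pcl* was unevenly spread over intervals. Of the 750 arm intervals, 693 had at least 2 fragments and were taken further, and 57 had 1 fragment. Their mean over the 6 samples had a median of 0.44 and quartiles of 0.22 and 1.06, and it exceeded 1 in 178, 2 in 85 and 3 in 32, while 45 lay below 0. Intervals of the pericentromeric parts with chromosome 4 were nearly all flat, with 108 of 132 within 0.1 of 0. The exceptions above 1 were 3 intervals, next to *ap*, a LIM-homeobox gene of wing patterning, and, on chromosome 4, between *dati* and *lgs* and next to *zfh2*. Of the 178 high arm intervals, 30 lay over 90% inside a peak, 105 lay partly in one and 43 held none.

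Levels of an interval went with those of the gene-near DNA on either side. Across the 693 arm intervals, the level of the far part and that of the adjoining sequence within 5 kb of the genes had r = 0.80 and rho = 0.72, a description over intervals that share libraries. Both parts exceeded 1 in 154 intervals, the far part alone in 24 and the adjoining part alone in 39. Over all 693 intervals the far part was the higher of both in 299, with a median difference of −0.056. Within the 178 high intervals, which were chosen by the level of their far part, it was the higher in 104.

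The intervals bordered by genes of developmental transcription factors had the higher medians. Neighbours were counted by lists of homeobox genes, other developmental transcription factors, signal ligands, chemoreceptors and neuronal wiring proteins. The lists were chosen with earlier results of these data known, so the medians and shares by list are a description and no test. The 49 arm intervals next to a homeobox gene had a median of 2.19 and 43 of them were touched by a peak, and the 61 next to another listed transcription factor had a median of 1.82 with 45 touched. Intervals next to a chemoreceptor gene (28, median 0.35) or a gene of neuronal wiring (22, median 0.38) were touched by a peak once each, as was 1 of 10 next to a signal ligand (median 0.71). All 693 arm intervals together had a median of 0.44. As 1 list, 107 intervals adjoined a transcription factor gene and 86 of these (80.4%) were touched by a peak, against 65 of the other 586 (11.1%). The chemoreceptor interval with a peak adjoined *Or67c*, an odorant receptor gene, and averaged 2.77 ± 0.11 on the sugar diet and 2.11 ± 0.24 on the control diet (SD, n = 3 each).

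**Figure D2:**
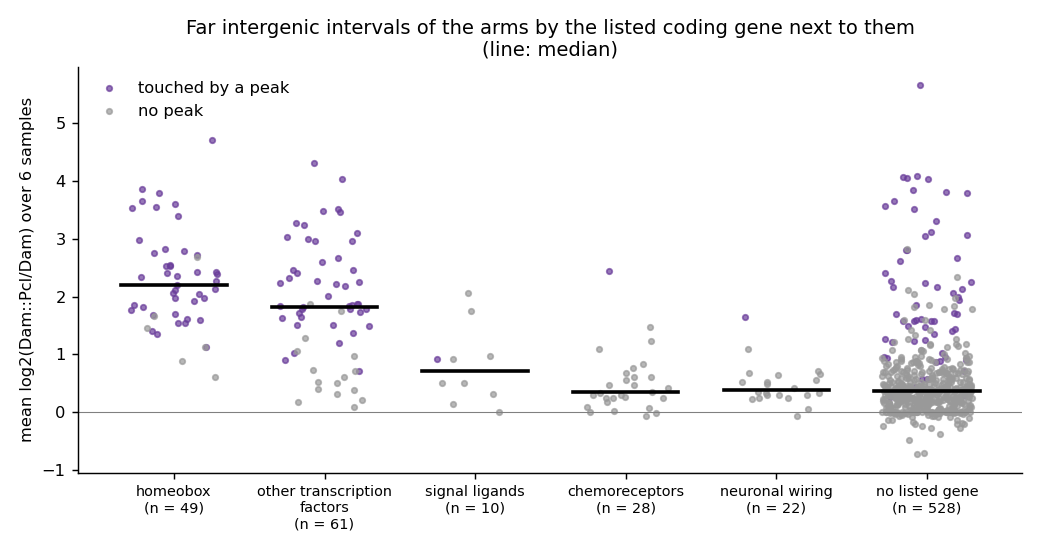
Mean log2(Dam::Pcl/Dam) over the 6 samples of each far intergenic arm interval, grouped by the list to which a neighbouring coding gene belongs; each point is an interval, purple points are touched by a peak and black lines are medians. Medians are 2.19 beside homeobox genes and 1.82 beside other transcription factors, against 0.35 beside chemoreceptors and 0.38 beside wiring genes. The lists were chosen with earlier results of these data known.

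Among intervals of at least 5 fragments and 2000 bp, 6 of the 8 with the most *Pcl* adjoined a gene of a transcription factor or of a Polycomb group protein. The interval between *Dr*, a homeobox gene of the dorsal nervous system, and *CG7567* (chr3R:29570549-29581570) had 4.17, 4.37 and 4.84 on the sugar diet, against 3.74, 3.76 and 3.59 on the control diet. That between *unc-4* and *OdsH*, both homeobox genes (chrX:17783788-17785914), had 4.27, 4.44 and 4.34 on the sugar diet, against 3.502, 3.34 and 3.27 on the control diet. In both, the lowest sugar diet value lay above the highest control diet value. The interval between *hkb*, a zinc-finger gene of the embryonic termini, and *CG1090* (chr3R:4351990-4354430) had 4.04, 4.55 and 4.68 on the sugar diet, against 3.74, 3.63 and 3.51 on the control diet, again without overlap. The interval beside *fru*, the regulator of courtship circuits (chr3R:18551041-18553961), had 3.16, 4.05 and 3.72 on the sugar diet, against 4.19, 4.03 and 3.71 on the control diet, and the diets overlapped. So did those of the interval beside *Su(z)2*, whose product belongs to the Polycomb group (chr2R:13013321-13039380), with 3.41, 3.78 and 3.92 on the sugar diet against 4.04, 3.95 and 3.66 on the control diet. That interval was 26060 bp long, and 85.8% of it lay in peaks. Neither of these was called (limma, adjusted p = 0.336 for *fru* and 0.427 for *Su(z)2*), but after quantile normalization both were called lower on the sugar diet, with differences of −0.69 and −0.52 (adjusted p = 0.0168 and 0.00125). The other 3 lay between *Eglp2* and *retn*, between the noncoding genes *lncRNA:CR45482* and *lncRNA:CR46247*, and between *CG34433* and *lncRNA:CR45191*.

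Of these 8 intervals, 5 were called higher on the sugar diet (limma, adjusted p = 0.00221 for *unc-4* to *OdsH*, 0.0119 for *CG34433*, 0.0202 for *hkb*, 0.0211 for *Eglp2* to *retn* and 0.0230 for *Dr*). The differences were 0.98, 0.77, 0.79, 0.33 and 0.76 in the same order. Leaving out single replicates kept the call in 6 of 6 trials for *unc-4* and *CG34433*, 2 of 6 for *hkb* and *Dr* and 1 of 6 for *Eglp2*, with adjusted p of at most 0.0691. After a correction for GC content the *unc-4* and *CG34433* calls remained (limma, adjusted p = 0.00284 and 0.0482), and after each sample was centred and scaled none of the 5 was called, with a difference of −0.39 beside *Eglp2*.

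The 4 lowest such intervals contained no peak. The one between *tRNA:Phe-GAA-1-7* and *tal-1A*, a gene of small patterning peptides (chr3R:13804250-13808059), had −0.32, −0.05 and 0.20 on the sugar diet, against −0.38, −0.35 and −0.76 on the control diet. That between *Cyp18a1*, an ecdysone-inactivating enzyme gene, and *CCKLR-17D1*, a neuropeptide receptor gene (chrX:18698244-18702001), had −0.15, 0.06 and 0.10 on the sugar diet, against −0.46, −0.62 and −0.56 on the control diet. Neither pair of diets overlapped, and the second was called higher on the sugar diet (difference 0.55, limma, adjusted p = 0.00694), a call lost after the GC correction (difference 0.24, adjusted p = 0.104). The other 2 lay between *CG43131* and *RabGGTa* and between *CG3107* and *gus*, with means of −0.35 and −0.28 on the sugar diet, against −0.14 and −0.14 on the control diet.

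**Figure D3:**
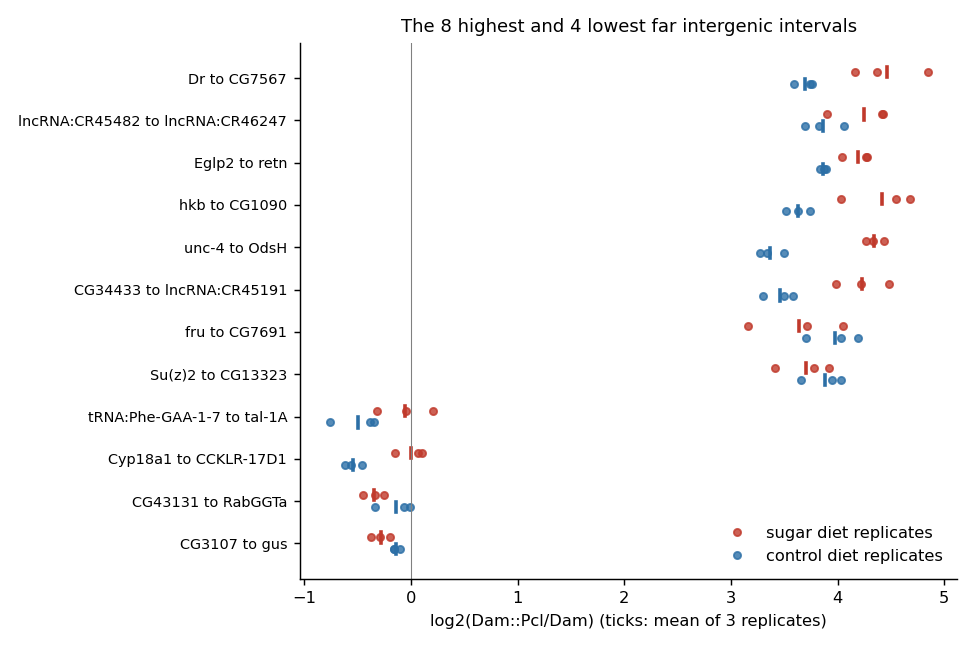
log2(Dam::Pcl/Dam) in the 3 sugar diet replicates (red, upper row of each pair) and the 3 control diet replicates (blue, lower row) for the 8 highest and 4 lowest far intergenic intervals of at least 5 fragments and 2000 bp. Intervals are named by the genes on either side, and vertical ticks are means. The highest intervals lie between 3.16 and 4.84 in every replicate, and the lowest lie between −0.76 and 0.20.

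Far intervals next to Hox genes and next to genes of transcription factors on which the study centred were also read out. In the Antennapedia complex, an interval of 26295 bp next to *Antp*, the Hox gene of the thorax (chr3R:7006431-7032725), had 2.45, 2.83 and 3.02 on the sugar diet, against 2.87, 2.74 and 2.40 on the control diet. The diets overlapped and the difference of 0.10 was not called (limma, adjusted p = 0.717). A shorter interval between *Antp* and *Sodh1* (chr3R:7044901-7046951, 3 fragments) was called higher on the sugar diet, at 2.99 ± 0.22 on the sugar diet and 2.52 ± 0.14 on the control diet (SD, n = 3 each; adjusted p = 0.0384). The interval between *Glut3* and *abd-A*, a Hox gene of the abdomen (chr3R:16795096-16795554, 2 fragments), was at 3.28 ± 0.51 on the sugar diet and 3.90 ± 0.19 on the control diet and was not called (adjusted p = 0.121). Next to *nub*, a POU-homeobox gene, an interval beside *bun* (chr2L:12552030-12565581) had means of 0.52 ± 0.09 on the sugar diet and 0.70 ± 0.14 on the control diet, not called (adjusted p = 0.176) except as lower on the sugar diet after quantile normalization (−0.25, adjusted p = 0.0173) and after centring and scaling (−0.26, adjusted p = 0.0273). The 2 long pericentromeric intervals beside *scro*, an NK-homeobox gene, were at 0.0026 ± 0.02 and −0.06 ± 0.03 on the sugar diet, against 0.12 ± 0.0039 and 0.11 ± 0.01 on the control diet (SD, n = 3 each). The second of these was called lower on the sugar diet (limma, adjusted p = 0.0225) and not after GC correction (adjusted p = 0.196), whereas the first was not called (adjusted p = 0.0511) and was called higher after it (0.25, adjusted p = 0.0227). *GATAe*, *Ptx1* and *cad* had no far interval of this size beside them.

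About 1 in 8 *Pcl* peaks lay in far intergenic DNA. Peaks were runs of high fragments found in all 3 replicates of a diet at a false discovery rate under 0.01 and merged over the diets, 1769 in all. Of these, 209 (11.8%) lay with 50% or more of their length in far fragments. On the arms, far fragments made up 6.84% of the sequence and held 202 of 1703 peaks (11.9%). Peaks covered 7.62% of far DNA on the arms, 9.59% of near DNA and 3.16% of gene DNA. Far peaks had a median length of 2076 bp and a median level of 3.40 on the sugar diet and 3.02 on the control diet, and the other 1560 peaks had a median length of 2240 bp and median levels of 3.44 on the sugar diet and 3.13 on the control diet. Their summits lay a median of 8.81 kb and at most 69.4 kb from the nearest gene.

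Most far peaks sat beside genes that carried peaks of their own. Both neighbouring coding genes held a peak for 92 far peaks, 1 of them did for 90, and neither did for 27, whereas 822 of 13945 coding genes (5.89%) held a peak overall. A listed transcription factor gene was a neighbour of 141 of 209 far peaks (67.5%). Of the 27 far peaks without a peak in either neighbouring coding gene, the highest lay between *Aps* and *CG14147*. It averaged 4.59 ± 0.14 on the sugar diet and 3.72 ± 0.12 on the control diet (SD, n = 3 each). The interval around it held 4 far peaks.

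Several far intervals held clusters of peaks. A single far peak was held by 64 intervals, 2 by 30 and 3 or more by 21. The interval between *ems* and *Art9* (chr3R:13909976-13937171) held 7, which took up 45.4% of its length. Those between *en*, the homeobox gene of posterior compartments, and *tou*, and between *vvl*, a POU-homeobox gene of neurons and trachea, and *Prat2* held 6 each. Intervals with 4 or 5 far peaks separated the paired genes *salr* and *salm*, *caup* and *mirr*, *Sox21b* and *D*, *btd* and *Sp1*, and *B-H2* and *B-H1*, all of transcription factors, or adjoined *fkh* and *Su(z)2*. A further 2 lay between *CG6414* and *CG43689* (5 far peaks) and between *Aps* and *CG14147* (4 far peaks), which are not on the lists of transcription factors.

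The highest far peak was the one between *ems* and *Art9* (chr3R:13921765-13925190), with 5.94, 6.07 and 6.10 on the sugar diet, against 4.86, 4.82 and 4.80 on the control diet. The diets were well apart, and it was called higher on the sugar diet by 1.21 ± 0.21 (SE; limma, adjusted p = 0.000126). The peak between *CG9483* and *CG42713* (chr2L:8879003-8879772) had 5.84, 5.83 and 5.43 on the sugar diet, against 4.33, 4.33 and 4.88 on the control diet, a difference of 1.18 ± 0.24 (SE; adjusted p = 0.000423). The peak between *en* and *tou* (chr2R:11540713-11542710) had 5.28, 5.35 and 5.40 on the sugar diet, against 4.66, 4.48 and 4.49 on the control diet (difference 0.80 ± 0.21, SE; adjusted p = 0.00429). In the centred and scaled values these 3 differences were 0.26, 0.25 and −0.07, and none was called. Of 6 further peaks among the 10 highest, 2 lay between *CG6414* and *CG43689* and the rest beside *retn*, *tsh*, *Su(z)2* and *ap*. A single one of the 6 was called, higher on the sugar diet (chrX:4023674-4025545, difference 1.13, limma, adjusted p = 0.000676). After centring and scaling it was not called (0.32, adjusted p = 0.528), and the *tsh* peak was called lower on the sugar diet (−0.94, adjusted p = 0.0327).

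Between the diets, called differences in far intervals ran in both directions in similar numbers. Of the 825 far intervals tested, 287 (34.8%) were called at an adjusted p under 0.05 (limma), where 43% of all 10487 intervals were. Higher on the sugar diet were 149 (18.1%, against 18.8% of all intervals), and lower were 138 (16.7%, against 24.2%). The diets were without overlap between replicates in 444 far intervals (53.8%, against 57.3% of all). The median difference over far intervals was 0.00, and over all intervals it was −0.02. The split of higher and lower calls moved with the scaling, with 129 higher and 217 lower after quantile normalization, 81 and 168 after centring and scaling, and 157 and 48 after a correction for GC content. Leaving out single replicates gave 134 to 249 calls, the fewest without control diet replicate 2, and also 158 without control diet replicate 1 and 191 without sugar diet replicate 3. Lower calls were 54 and 55 without control diet replicates 2 and 1, and 73 and 75 without sugar diet replicates 1 and 3, and higher calls were 80 without control diet replicate 2.

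The direction of the calls differed between chromosome regions and went with base composition. On the arms 147 far intervals (21.2%) were called higher on the sugar diet and 76 (11.0%) lower. In the pericentromeric parts with chromosome 4, 2 (1.52%) were higher and 62 (47.0%) lower. Over all intervals of every class and region, 18.8% were higher and 24.2% lower. The lower level on the sugar diet in the pericentromeric parts was not particular to far DNA. Near and gene fragments there differed by −0.34 and −0.36, against −0.10 for far fragments. Arm intervals called higher had a median GC content of 44.05%, and those called lower had 38.5%. Over the 693 arm intervals the diet difference and GC content had r = 0.63 and rho = 0.68, a description over intervals of the same libraries. Of 130 arm intervals with 44% GC or more, 75 were called higher and 0 lower, with a median difference of 0.43, and of 46 with under 36% GC, 0 were higher and 18 lower, with a median of −0.07, nearer to 0 than the −0.20 of the 44 with 36 to 38% GC. Near and gene intervals had medians of 0.40 and 0.21 at 44% GC or more and −0.50 and −0.71 under 36%. At 44% GC or more, 440 of 871 near and 832 of 1913 gene intervals were called higher, and 41 and 68 lower. Under 36%, 355 of 570 near and 56 of 74 gene intervals were called lower, and 9 and 0 higher. After the GC correction, 66 of the 149 higher calls and 24 of the 138 lower calls were made again in the same direction, and 2 and 13 were called the other way. What part GC content had in the diet difference was not tested beyond this correction.

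**Figure D4:**
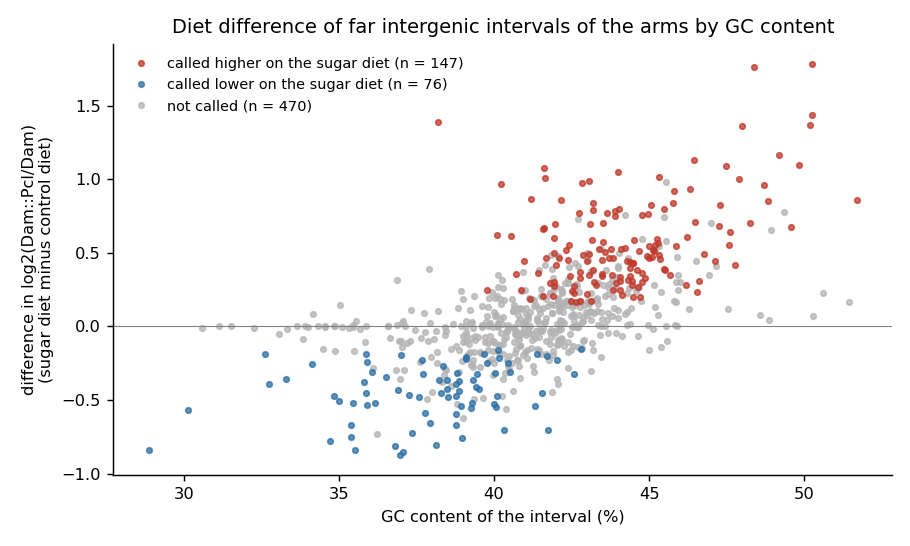
Diet difference in log2(Dam::Pcl/Dam), sugar diet minus control diet, against GC content in percent for 693 far intergenic arm intervals; red points were called higher on the sugar diet (147), blue points lower (76) and grey points neither. Blue points gather below about 40% GC and red points above it, with r = 0.63 over all points.

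Among called intervals of at least 5 fragments and 2000 bp, the largest rise was next to *mir-137*, a microRNA gene (chr2R:16070462-16072627, 48.4% GC). It had 2.56, 2.77 and 2.43 on the sugar diet, against 0.89, 0.82 and 0.76 on the control diet, so that the diets were far apart (difference 1.76 ± 0.10, SE; limma, adjusted p = 0.00219). The interval between *CG3795* and *Scgdelta*, a sarcoglycan gene (chrX:1715346-1730759, 50.2% GC), had 2.45, 2.44 and 2.96 on the sugar diet, against 1.32, 1.15 and 1.30 on the control diet (difference 1.37 ± 0.16, SE; adjusted p = 0.00367). After GC correction these 2 differences were 1.22 and 0.69, and both remained called. Intervals beside *Bx*, a LIM-only gene, *gt*, a gap gene, and *hry*, the pair-rule repressor gene, rose by 1.05, 1.00 and 0.99. After GC correction their differences were 0.78, 0.48 and 0.89, all called. The *Bx* call was lost after centring and scaling (0.52, limma, adjusted p = 0.135), and the *hry* call was lost after that (0.79, adjusted p = 0.0895) and after quantile normalization (0.86, adjusted p = 0.078). The *hry* call was kept in 2 of 6 trials without 1 replicate, with adjusted p between 0.0275 and 0.105.

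The largest falls lay in AT-rich DNA, mostly next to genes outside the lists. Between *CG10749* and *CG11262* (chr3L:12980842-12989856, 37.0% GC), values were −0.15, 0.17 and −0.03 on the sugar diet, against 0.99, 0.95 and 0.67 on the control diet (difference −0.87 ± 0.12, SE; limma, adjusted p = 0.0054). Between *CG15279* and *CG4480* (chr2L:14858352-14864153, 37.1% GC), they were −0.44, −0.04 and −0.21 on the sugar diet, against 0.72, 0.64 and 0.52 on the control diet (difference −0.85 ± 0.12, SE; adjusted p = 0.00507). Both pairs of diets were well separated, and after GC correction the differences were −0.46 and −0.49, still called. Beside *CG11294*, which is on the homeobox list, the fall of 0.84 on the log2 scale at 28.9% GC became a called rise of 0.65 after GC correction. Falls of 0.81 and 0.78 next to *CG32457* and to *5-HT2A*, a serotonin receptor gene, completed the 5. After GC correction they were −0.46, still called, and −0.23, not called (limma, adjusted p = 0.255). Leaving out single replicates kept the *CG11294* and *5-HT2A* calls in 3 of 6 trials each, with adjusted p of at most 0.0739.

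Among the intervals beside genes of the homeobox and transcription factor lists, more were called higher on the sugar diet than lower, as over all arm intervals. Next to homeobox genes, 10 of 49 were called higher and 2 lower, and next to other transcription factors 16 of 61 were higher and 2 lower. The shares called higher were 20.4% and 26.2%, against 21.2% of all arm intervals, and the shares called lower were 4.08% and 3.28%, against 11.0%. No test was made of these shares. Examples were the far interval right beside *salr* (chr2L:11379134-11381870), one of 2 between the zinc-finger genes *salr* and *salm*, which averaged 3.66 ± 0.15 on the sugar diet and 2.80 ± 0.07 on the control diet (limma, adjusted p = 0.00306), and that between *bab1* and *bab2*, BTB genes of leg and ovary, with 1.91 ± 0.15 on the sugar diet and 1.36 ± 0.07 on the control diet (SD, n = 3 each; adjusted p = 0.00772). The longer interval between *salr* and *salm* (chr2L:11397431-11428776) averaged 1.92 ± 0.17 on the sugar diet and 1.75 ± 0.05 on the control diet and was not called (adjusted p = 0.204). After GC correction the short *salr* interval remained called with a difference of 0.82, and that between *bab1* and *bab2* was not called (0.25). Among intervals next to signal ligands 5 of 10 were higher. That beside *upd2*, a ligand gene of JAK/STAT signalling, was at 2.95 ± 0.32 on the sugar diet and 1.17 ± 0.22 on the control diet (limma, adjusted p = 0.00336). The *upd2* interval fell short of the size of at least 5 fragments and 2000 bp set for the largest rises. Chemoreceptor neighbours had 4 higher and 3 lower of 28, and wiring neighbours 3 higher and 2 lower of 22.

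At the far peaks, as over all peaks, most calls were toward more *Pcl* on the sugar diet. Of 209 far peaks, 102 (48.8%, against 50.8% of all peaks) were called, 86 higher on the sugar diet (41.1%, against 37.2%) and 16 lower (7.66%, against 13.6%). The median difference was 0.35 over far peaks and 0.33 over all peaks. Peaks themselves were chosen by these values, and the offset over all peaks became −0.01 after quantile normalization, with 61 far peaks higher and 52 lower, and −0.27 after centring and scaling, with 22 higher and 31 lower. After GC correction 49 of the 86 higher and 6 of the 16 lower calls were made again. Without control diet replicate 3 the lower calls were 28, and without control diet replicate 1 they were 10. A peak was found on both diets at 129 of the far sites, on the sugar diet alone at 46 (22.01%, and 17.4% of other peaks) and on the control diet alone at 34 (16.3%, and 22.4%). These 46 and 34 peaks entered the set through the diet where they were high. Calls among them are part of the counts above and cannot support a difference between the diets.

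The far peaks that differed most were mostly found on 1 diet alone, were 418 to 2895 bp long, and they were picked out after their values were seen. Between *CG13251* and *kni*, a gap gene of the nuclear receptor family (chr3L:20666331-20666748), values were −1.39, −0.59 and −0.49 on the sugar diet, against 3.57, 3.74 and 3.17 on the control diet. Between *CG15167* and *ham*, a zinc-finger gene of neuron identity (chr2L:18749243-18749972), they were 0.63, 0.77 and 1.15 on the sugar diet, against 5.03, 5.02 and 3.59 on the control diet. The differences were −4.32 and −3.70, and after GC correction −0.98 and −2.56. Both were peaks on the control diet alone, so they entered the set through their high control diet values. A test of the same values cannot support these differences, and no p-value is given for them. The 2 kb to the right of the *ham* peak went the other way, at 2.65 ± 0.44 on the sugar diet and 1.07 ± 0.21 on the control diet, and the 2 kb to the right of the *kni* peak were at 0.52 ± 0.14 on the sugar diet and 0.63 ± 0.06 on the control diet (SD, n = 3 each). To the left of the *kni* peak the 2 kb were lower on the sugar diet without overlap, at 0.28 ± 0.16 on the sugar diet and 1.05 ± 0.06 on the control diet. Falls on chromosome 4 next to *zfh2*, a zinc-finger homeobox gene, and next to *Cadps*, a gene of neuropeptide release, were −1.83 and −1.46 as deposited and 0.35 and 0.05 after GC correction. The *zfh2* and *Cadps* peaks were also peaks on the control diet alone, and the same limit holds for them.

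Among the rises, the peak between *htl*, an FGF receptor gene, and *bard* (chr3R:18063312-18063944) had 2.63, 2.40 and 4.23 on the sugar diet, against 0.56, 0.55 and 0.78 on the control diet. It rose by 2.46 on the log2 scale, and by 1.38 after GC correction. As it was a peak on the sugar diet alone, a test of the same values cannot support this rise. The peak between *CG15258* and *CG44869* (chr2L:15370392-15370929) had 4.69, 4.85 and 5.57 on the sugar diet, against 2.57, 2.76 and 2.86 on the control diet, a rise of 2.31 and of 1.29 after correction. Peaks between *E5* and *ems*, both homeobox genes, beside *lbe*, a homeobox gene of muscle and heart, and beside *mid*, a T-box gene, rose by 2.12, 2.11 and 1.98. The *CG15258* to *CG44869* and *lbe* peaks were also peaks on the sugar diet alone, and the limit given for the *htl* peak holds for them. The most changed peaks were picked among called peaks without overlap between diets, so the lack of overlap in all 5 rises followed from the choice. The 2 kb on either side of the *htl* peak were at 0.32 and 1.01 on the sugar diet, against 0.56 and 0.93 on the control diet, and the 2 kb left of the *E5* to *ems* peak were at 3.17 ± 0.23 on the sugar diet and 1.60 ± 0.54 on the control diet.

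**Figure D5:**
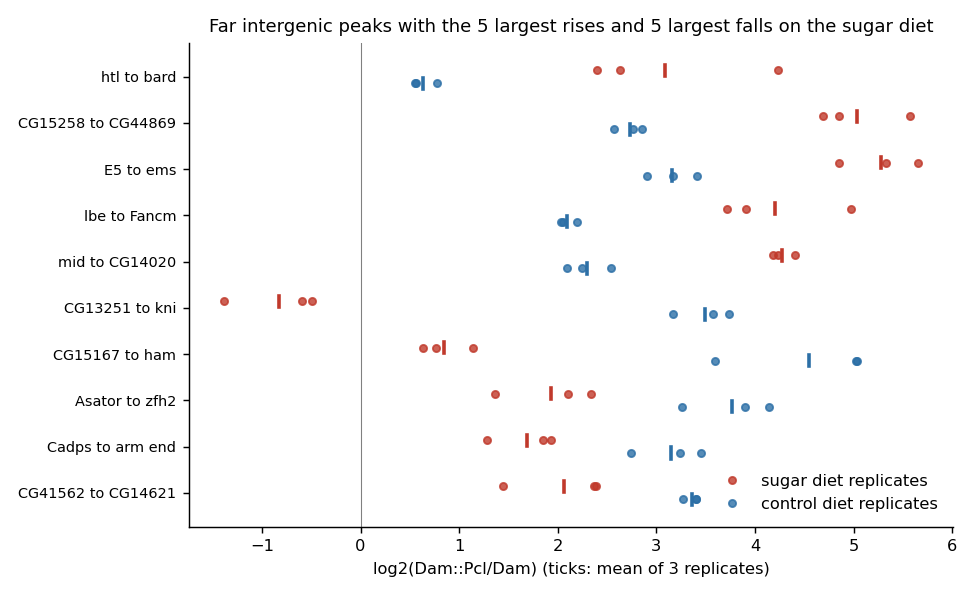
log2(Dam::Pcl/Dam) in the 3 sugar diet replicates (red, upper row of each pair) and the 3 control diet replicates (blue, lower row) for the 5 far intergenic peaks with the largest rises and the 5 with the largest falls on the sugar diet; vertical ticks are means. The *CG13251* to *kni* peak has −1.39 to −0.49 on the sugar diet and 3.17 to 3.74 on the control diet, the widest gap of the 10.

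The motifs searched for were also counted inside and outside far peaks. Of 25672 windows of 300 bp in far arm DNA, 28.9% held GAGAG or CTCTC and 50.6% held GCCAT or ATGGC. Within peaks (1748 windows) the shares were 30.4% and 51.4%, and wholly outside peaks (23538 windows) they were 28.8% and 50.5%. GTGTGT or its reverse complement ACACAC, a repeat found in many fly response elements, was in 22.4% of the windows in peaks and 19.4% of those outside. At 40 to 45% GC, GAGAG or CTCTC was in 37.3% of the windows in peaks and 32.2% of those outside, and at 35 to 40% GC in 23.5% and 26.5%. No test was made of these shares. These are counts of letters in the windows and not binding sites.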

How the data were processed

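The deposited files of the 6 Dam::Pcl samples hold 1 log2 ratio of Dam::Pcl to Dam per GATC fragment, which the authors made with the damidseq pipeline, and per the labels the reads were aligned with Bowtie2 to BDGP6 (submitters' processing notes, versions not given in the sources used here). Ratios were used as deposited. The Dam-only samples, 3 per diet, entered only as denominators, and which Dam-only sample belongs to which ratio is not given in the sources used here. The members and the gene lists were chosen with earlier results of these data known.

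Distances were taken to gene spans of every biotype except transposable element. Intervals were runs of at least 2 fragments of 1 distance class, and their value was the length-weighted mean. Because ratios hold no reads, the read-based test of the study's methods could not be run, and limma 3.58.1 (R 4.3.3) was fitted to all 10487 intervals and, separately, to all 1769 peaks, with Benjamini-Hochberg adjustment and an adjusted p under 0.05. Peaks were rebuilt per replicate after the methods (quantiles 0.95 to 0.99, runs of at least 2 fragments, 100 shuffles, false discovery rate under 0.01). Single values were compared with exact permutation tests over samples. Replicates were separate pools of heads, and p-values measure the spread between the ratios of these pools. If the ratios of a diet share a Dam-only denominator, the p-values leave out its variation. Pericentromeric parts were 2L above 22 Mb, 2R below 6 Mb, 3L above 23 Mb, 3R below 4 Mb, X above 22 Mb and all of chromosome 4. The fit was tested on simulated data.

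Named intervals were the 8 highest, the 4 lowest, the 5 largest called rises and falls without overlap, the 3 longest and those next to a Hox or study gene, all with at least 5 fragments and 2000 bp and not at 0 throughout, and named peaks were the 10 highest, of which 1 is not reported here. The 10 most changed peaks, the peak clusters and the other intervals given as examples were chosen after their values were seen. *Dr* was not on the homeobox list. Alternatives changed the scaling, GC correction, distance, gene set, zeros, blocks, fragment minimum, threshold, weighting, peak overlap and replicates.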

Additional observations from a re-analysis of the deposited data

Results flagged for a closer look

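In the pericentromeric parts and chromosome 4, the order of far intergenic DNA and the rest ran opposite ways on the diets. Far minus all other fragments was 0.20, 0.15 and 0.18 in the sugar diet replicates and −0.12, −0.10 and −0.03 in the control diet replicates, a difference between diets of 0.258. Far minus near was 0.10, 0.02 and 0.06 on the sugar diet and −0.23, −0.20 and −0.11 on the control diet, a difference of 0.240. Far minus gene was 0.22, 0.17 and 0.20 on the sugar diet and −0.10, −0.08 and −0.01 on the control diet, a difference of 0.262. Each had p = 0.1 in the two-sided exact permutation test (n = 3 each), the smallest that this design allows. Beside these values, the GC content of the pericentromeric sequence was 40.7% in far, 39.1% in near and 38.4% in gene fragments, and 33.7%, 15.3% and 16.8% of the fragments were at 0 in all samples. The gene and near fragments held most of the contrast between diets, at −0.20 ± 0.04 and −0.06 ± 0.05 on the sugar diet and 0.16 ± 0.05 and 0.28 ± 0.07 on the control diet (SD, n = 3 each). The part of base composition and of zeros in this pattern was not tested.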

How the results depend on the processing

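At an adjusted p under 0.01 (limma), 97 far intervals were called, 61 higher and 36 lower on the sugar diet, and 10 far peaks were called lower. Against at least a 1.5-fold change, 3 intervals were called, 3 higher and 0 lower, and 32 peaks, 27 higher and 5 lower, against the 287 and 102 calls of the report. Quantile normalization gave 217 lower intervals and 52 lower peaks. Centring and scaling gave 81 higher intervals and 53 called peaks, 22 higher and 31 lower. GC correction gave 48 lower intervals and 10 lower peaks. With a distance of 3 kb, 450 intervals were called (254 higher), and of 352 far peaks 177 were called, 151 higher and 26 lower. With 10 kb, 135 intervals were called, 58 higher and 77 lower, and of 87 far peaks 45 were called, 36 higher and 9 lower. With protein-coding genes only there were 384 far peaks and 180 calls, 147 higher and 33 lower. Without pericentromeric parts 76 intervals were lower. Blocks of about 5 kb gave 1113 calls, 370 higher and 743 lower, over more units tested.

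Whether the replicate numbers pair the samples could not be decided. Same-numbered deviations from the diet means correlated at −0.31, 0.21 and −0.19, and 1 of the 3 sugar diet samples correlated best with its own number. Deviations of 3 replicates from their own mean are tied to each other, so these values cannot exclude pairing. With the replicate number as a block, 114 intervals were called, 71 higher and 43 lower. With the replicate block and GC correction together, 74 intervals were called, 68 higher and 6 lower, and 53 peaks, 47 higher and 6 lower. Turned differences were the same in this fit as with GC correction alone.

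Means turned sign as follows. The diet difference over all far fragments was 0.13 after GC correction and 0.037 without pericentromeric parts. The arm difference was −0.046 after quantile normalization and −0.082 after centring and scaling, and the pericentromeric difference was 0.082 after GC correction. Far minus other was −0.070 at 10 kb, and its diet difference was −0.0043 at 10 kb and −0.026 unweighted. Far minus near on the arms was −0.017 at 3 kb and −0.026 unweighted, both no longer past the threshold, and 0.0020 with protein-coding genes only. After GC correction, intervals beside *Eglp2* (−0.089), *fru* (0.28), *Su(z)2* (0.25), *CG11294* (0.65), *CG42598* (0.032), *Myo81F* (−0.30), *Dbp80* (0.14), *nub* (0.054) and *scro* (0.25) turned, as did the peaks beside *tsh* (0.31), *zfh2* (0.35) and *Cadps* (0.049). After quantile normalization the *Eglp2* (−0.021) and *Antp* (−0.20) intervals turned, with peaks beside *CG6414* (−0.12), *retn* (−0.26), *Su(z)2* (−0.28) and *ap* (−0.26). After centring and scaling, intervals beside *lncRNA:CR45482* (−0.31), *Eglp2* (−0.39) and *Antp* (−0.36) turned, with peaks beside *CG6414* (−0.65), *en* (−0.069), *retn* (−0.73), *Su(z)2* (−0.72) and *ap* (−0.67).

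Of the named intervals and peaks, 0 turned with trend and robust estimation or with the replicate block alone, where 9 fell short of the threshold. Of those that other settings gave a value for, 0 turned among 19 at 3 kb, 19 at 10 kb, 35 with protein-coding genes only, 44 without fragments at 0, 38 without pericentromeric parts and 15 in blocks.

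Leaving out single replicates gave 134 to 249 called intervals (80 to 176 higher, 54 to 121 lower), 74 to 125 called far peaks (63 to 112 higher, 10 to 28 lower) and 211 to 218 far peaks. The median interval difference was −0.01 to 0.04, the diet difference over far fragments −0.05 to −0.0041, over those of the arms 0.0060 to 0.09 and over pericentromeric ones −0.11 to −0.09. Far minus other was 0.079 to 0.090 (its diet difference 0.00068 to 0.03) and on the arms 0.39 to 0.41, far minus near −0.079 to −0.066, far minus gene 0.48 to 0.50, X minus autosomes 0.15 to 0.17 and arms minus pericentromeric parts 0.65 to 0.70. The sign-flip tests among these lost their threshold because 5 samples cannot give an exact p under 0.0625. The *Antp* interval (−0.038 to 0.26) turned without sugar diet replicate 3 or control diet replicate 3, the peak beside *tsh* (−0.28 to 0.13) without sugar diet replicate 1, and peaks beside *Su(z)2* (−0.027 to 0.17) and *ap* (−0.027 to 0.30) without sugar diet replicate 2. The causes were not tested. Ratios without reads leave the precision of single fragments unknown, so intervals of few fragments are the least certain.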
